A study of Mus musculus with 15 samples.

Results

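HSF1 binding was described at the genes of 8 transcription factors that build and run the fat cell: Pparg, Cebpa, Cebpb, Cebpd, Ebf1, Ebf2, Srebf1 and Mlxipl. A peak belonged to a gene when it overlapped the gene's span on GRCm38 (mm10) extended by 50 kb on each side, so the rule itself uses no measured value. These are 8 of 21887 protein-coding genes. They held 251 of the 54878 peaks in the 10 deposited lists, and these 251 peaks merged into 79 of 18176 regions.

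The measurements are ChIP-seq of heat shock factor 1 (HSF1) in mouse brown adipose tissue (BAT), with 2 HSF1 libraries in each of 5 groups. The time course takes wild type mice kept at room temperature or exposed to cold for 40 min (pair A) or 4 h. Pair B is a further set of wild type libraries with 40 min of cold, whose titles carry the replicate numbers of pair A plus a suffix. The last group is TXNIP knockout mice with 40 min of cold. All groups share the same tissue, crosslinking and antibody. Pair B and the knockout gave what are called here the long lists, with 10399 to 14583 peaks, against 123 to 2287 in the 6 libraries of the time course. The labels used here give no age, sex, strain, cold temperature or construction of the TXNIP allele. Whether the libraries of a group come from separate animals, and whether both 40 min pairs come from the same tissue, is not stated, so p-values here cover library-to-library spread alone, and that can be technical. BAT holds vessels, nerves and immune cells beside brown adipocytes, and a peak list carries no expression, so the cell type behind a peak was not tested.

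HSF1 is the factor that binds inverted repeats of the motif nGAAn, called heat shock elements, and switches on chaperone genes when proteins misfold. Fat cell differentiation runs through a cascade in which C/EBPβ and C/EBPδ act early and induce PPARγ and C/EBPα, which then hold each other on. EBF1 and EBF2 prepare chromatin for PPARγ, with EBF2 favouring the brown fat programme. SREBP1 (from Srebf1) and ChREBP (from Mlxipl) are the lipogenic arm, responding to sterols and insulin and to glucose metabolites respectively.

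Each peak carries a fold enrichment, the authors' linear ratio of ChIP signal at the summit over local background, and a rank by −log10 p within its list, where rank 1 is the strongest. These values are the authors' and come without read counts, so depth is unknown and folds of different libraries are set side by side only as descriptions. For a ratio that stays within a list, folds are also given as a percent of the fold at Hspe1, the mitochondrial chaperonin gene whose shared promoter with Hspd1 held rank 1 in 8 lists and rank 2 in both 4 h lists. The Hspe1 fold was 194 and 193 at room temperature, 400 and 328 in pair A, 53.6 and 117 at 4 h, 1296 and 1210 in pair B and 1148 and 1109 in the knockout. At Txnip, the targeted gene, peaks within 1000 bp of the span numbered 0 and 1 at room temperature, 1 and 2 in pair A, 1 and 1 at 4 h, 2 and 3 in pair B and 2 and 4 in the knockout. The highest Txnip folds in the knockout were 9.96 and 11.0, with summits just before the gene's lower end. Since the deleted part is not given, these peaks check nothing about the genotype label.

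Promoter sequence shows what lies under the few summits that fell close to a start. RefSeq promoter entries (GRCm38) matched 6 of the 8 genes, with 12 listed starts, and a summit fell within 250 bp upstream of 5 of these starts in 4 genes. The windows of Cebpa and Cebpb lie wholly before the gene and are shown whole, 5′ to 3′. Capitals mark 21 bases centred on the summit of the strongest peak among those whose summit fell in the window. At Cebpb the highest −log10 p of the region was in pair B replicate 1, with its summit inside the gene at 167689216. Cebpa is chr7:35119043-35119292 and Cebpb is chr2:167688665-167688914, both on the plus strand.
Cebpa: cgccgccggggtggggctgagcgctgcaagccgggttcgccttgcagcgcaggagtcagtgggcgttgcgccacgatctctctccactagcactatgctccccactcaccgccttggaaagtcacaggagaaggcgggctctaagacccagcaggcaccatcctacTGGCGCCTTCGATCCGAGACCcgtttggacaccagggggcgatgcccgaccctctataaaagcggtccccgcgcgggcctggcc
Cebpb: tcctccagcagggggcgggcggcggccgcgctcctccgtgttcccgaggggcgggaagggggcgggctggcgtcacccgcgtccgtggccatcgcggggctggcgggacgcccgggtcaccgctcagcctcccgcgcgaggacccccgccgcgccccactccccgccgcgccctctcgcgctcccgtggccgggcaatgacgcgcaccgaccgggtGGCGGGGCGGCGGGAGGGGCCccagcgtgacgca
For the other 3 starts, which lie inside their gene spans, only the bases around the strongest summit are shown, with the same 21 in capitals. They precede the Pparg starts at chr6 positions 115361144 and 115362349 on the plus strand and the Srebf1 start at chr11 position 60220627 on the minus strand. The Hspe1 stretch is shown for contrast, with its 18 bases of linked GAA and TTC repeats in capitals.
Pparg, first start: ggctCGGCTCCTCCGGTCCGCGGCCggcc
Pparg, second start: tttaTGGCTTGGGATTGGGGAGGAGccta
Srebf1: cttcCATTCGGTCCCTCCCTTGGCCtgat
Hspe1: tccgTTCTAGAACCTTCCGGAAggcc
The run at Hspe1 lay 37 bp from the median HSF1 summit there. A search for facing pairs, GAANNTTC or TTCNNGAA, in the 300 bases from 250 before to 50 after each start found none in any of the 12 promoters of the adipocyte factors, while 4940 of all 32817 RefSeq promoters (15.1%) held one. The triple, GAANNTTCNNGAA or TTCNNGAANNTTC, was in 198 of all promoters (0.603%), in none of the 12, and in 2 of the 3 promoters of Hspd1 and Hspe1. Each motif reads the same on both strands or was paired with its complement, and each triple contains both pairs. The absence of a match says only that these letters are not in these windows. The 5 windows with a summit were rich in G and C, at 66.4% for Cebpa, 81.6% for Cebpb, 82.4% and 63.6% for the Pparg starts and 63.2% for Srebf1. Windows of these genes without a summit overlapped this range, from 40.0% at the Ebf1 start 44618100 to 70.8% at the Srebf1 start 60210471.

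Across the 79 regions, 42 had their median summit over libraries inside one of the 8 genes and 37 had it outside, and 9 lay within 1000 bp of a listed start. Listed starts were matched for 6 of the 8 genes. A further gene complicates some regions: 6 had their summit inside another protein-coding gene and 13 lay nearer to another one. Only 14 regions had a peak in any library of the time course, and 65 were seen in the long lists alone. Of the 79, 22 were called in 1 library, 36 in all 4 long lists, and 6 in 6 or more libraries (7.59%, against 9.03% of all regions). A single region, in Ebf1, was called in all 10 libraries, as were 95 of all regions (0.523%).

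**Figure D1:**
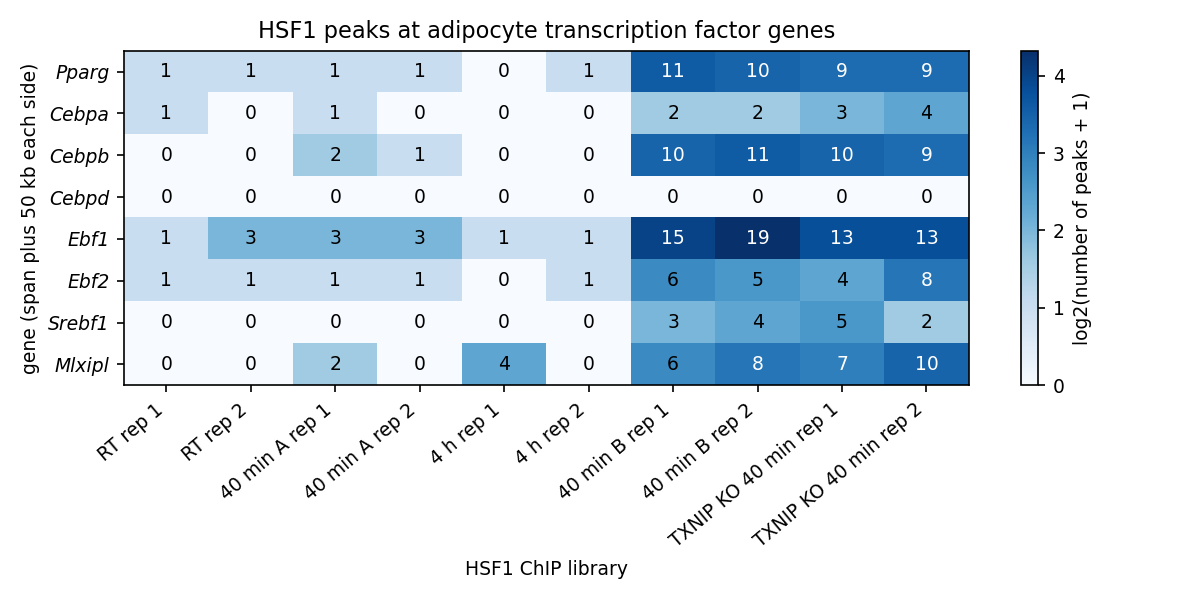
Number of HSF1 peaks within 50 kb of each gene (rows) in each of the 10 libraries (columns, 2 per group), with colour giving log2(number + 1). Ebf1 has at least 1 peak in every library, Cebpd has none in any, and the 4 right-hand libraries hold 218 of the 251 peaks.

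Peaks at these genes numbered 4 and 5 at room temperature, 10 and 6 in pair A, 5 and 3 at 4 h, 53 and 59 in pair B, and 51 and 55 in the knockout. As a share of each list this was 0.435% and 0.394% at room temperature, 0.437% and 0.359% in pair A, 4.07% and 0.855% at 4 h, 0.419% and 0.405% in pair B, and 0.490% and 0.517% in the knockout. The share thus lay between 0.359% and 0.517% in every library outside 4 h. In peaks per Mb, the 1.60 Mb of these 8 windows were denser than the 1687 Mb of all coding-gene windows in every library, from 2.50 against 0.484 in room temperature replicate 1 to 36.9 against 7.71 in pair B replicate 2. The 4 h libraries gave 3.13 against 0.0634 and 1.88 against 0.185. These rest on 5 and 3 peaks, and 4 of the 5 in replicate 1 are at Mlxipl, where replicate 2 had none. The 8 genes were chosen with earlier results of these data known, so the higher density is a description and was not tested.

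Only Pparg, Ebf1 and Ebf2 had a region called in both room temperature libraries, where 7.69% of all coding genes did. The same 3 genes had one in pair A, where the share of all genes was 13.0%. Ebf1 alone had one at 4 h (1.28% of all genes). All but Cebpd had one in pair B and in the knockout, where 48.0% and 41.1% of all genes did. Spans differ in length, and the 390 kb of Ebf1 make its window far longer than that of Cebpb, so these shares are not matched on length.

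PPARγ, the nuclear receptor required for fat cell formation and for its lipid genes, had its main HSF1 site behind the gene. The Pparg span is chr6:115360879-115490404, and its leading region had a median summit at 115501364, 10960 bp beyond the gene's 3′ end and 79298 bp after the last listed start. Its fold was 10.5 and 12.9 at room temperature, 13.0 and 12.0 in pair A, 8.93 in 4 h replicate 2 with no peak in replicate 1, 46.8 and 52.3 in pair B, and 31.9 and 24.3 in the knockout. Summits of the 9 libraries lay within 91 bp of each other. Its rank by −log10 p fell in the top 15.2% to 39.6% of the time course lists, the top 3.30% and 4.03% of pair B and the top 6.96% and 9.08% of the knockout. As a percent of the Hspe1 fold it stood at 5.40 and 6.69 at room temperature, 3.26 and 3.65 in pair A, 7.62 in 4 h replicate 2, 3.61 and 4.32 in pair B and 2.78 and 2.19 in the knockout. Both room temperature values lay above both values of pair A, and both knockout values lay below both of pair B.

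The other 14 Pparg regions were seen in the long lists only, with folds from 2.90 to 10.6. They included 9 more past the 3′ end, between 5543 and 44449 bp away, and 1 that lay 16519 bp before the gene. The upstream region, with its median summit at 115344360, had folds of 8.11 and 7.66 in pair B and 10.6 and 9.28 in the knockout. Promoter peaks were weak: the first start shown above had folds of 4.58 in pair B replicate 1 and 4.94 in knockout replicate 2, and the second start had 2.90, 4.63 and 3.16 in 3 libraries. Inside the gene there were 2 further regions, each in knockout replicate 1 alone, with folds of 4.77 and 3.94. The one with a fold of 4.77, at 115421107, lay within 1000 bp before the last listed start, at 115422066. The one with a fold of 3.94, at 115463152, lay 41086 bp after that start.

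C/EBPα, the partner that maintains the mature adipocyte state, had no summit inside its short gene (chr7:35119293-35121928). Its leading region was 37968 bp upstream, with a median summit at 35081325, and the nearest coding gene to that summit was Gm45095, 23680 bp away. The fold there was 3.81 in room temperature replicate 1, 5.56 in pair A replicate 1, 10.6 and 12.2 in pair B and 9.20 and 8.90 in the knockout. Neither replicate 2 of the time course groups called it, and no 4 h library did. The promoter peak shown above, 74 bp before the start, was called in knockout replicate 2 alone with a fold of 3.95. A pair of weaker regions lay 9298 and 20327 bp past the gene.

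C/EBPβ, an early and stress-responsive member of the family, was surrounded by many weak sites. Around its short span (chr2:167688915-167690432) lay 11 regions, all with a median summit outside the gene, of which 8 were in all 4 long lists. None was called at room temperature or at 4 h. Regions 4870, 9586 and 32341 bp past the gene each had a peak in 1 library of pair A, with folds of 6.68, 3.87 and 4.56, so none was seen in both. The highest single fold was 14.1, in pair B replicate 2, at the region 12117 bp past the gene, which had 9.56 in pair B replicate 1 and 11.0 and 11.3 in the knockout. The region at 4870 bp had folds close to these, at 9.29 and 13.7 in pair B and 11.3 and 13.6 in the knockout. The promoter region had folds of 7.04 and 5.57 in pair B and 7.05 and 5.33 in the knockout, and its median summit was 24 bp before the start, with the summits of pair B inside the gene at 167689216 and 167689149. One further coding gene, Tmem189, lies in the window. C/EBPδ, the other early factor (chr16:15887286-15889545), had no peak within 50 kb in any of the 10 lists.

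**Figure D2:**
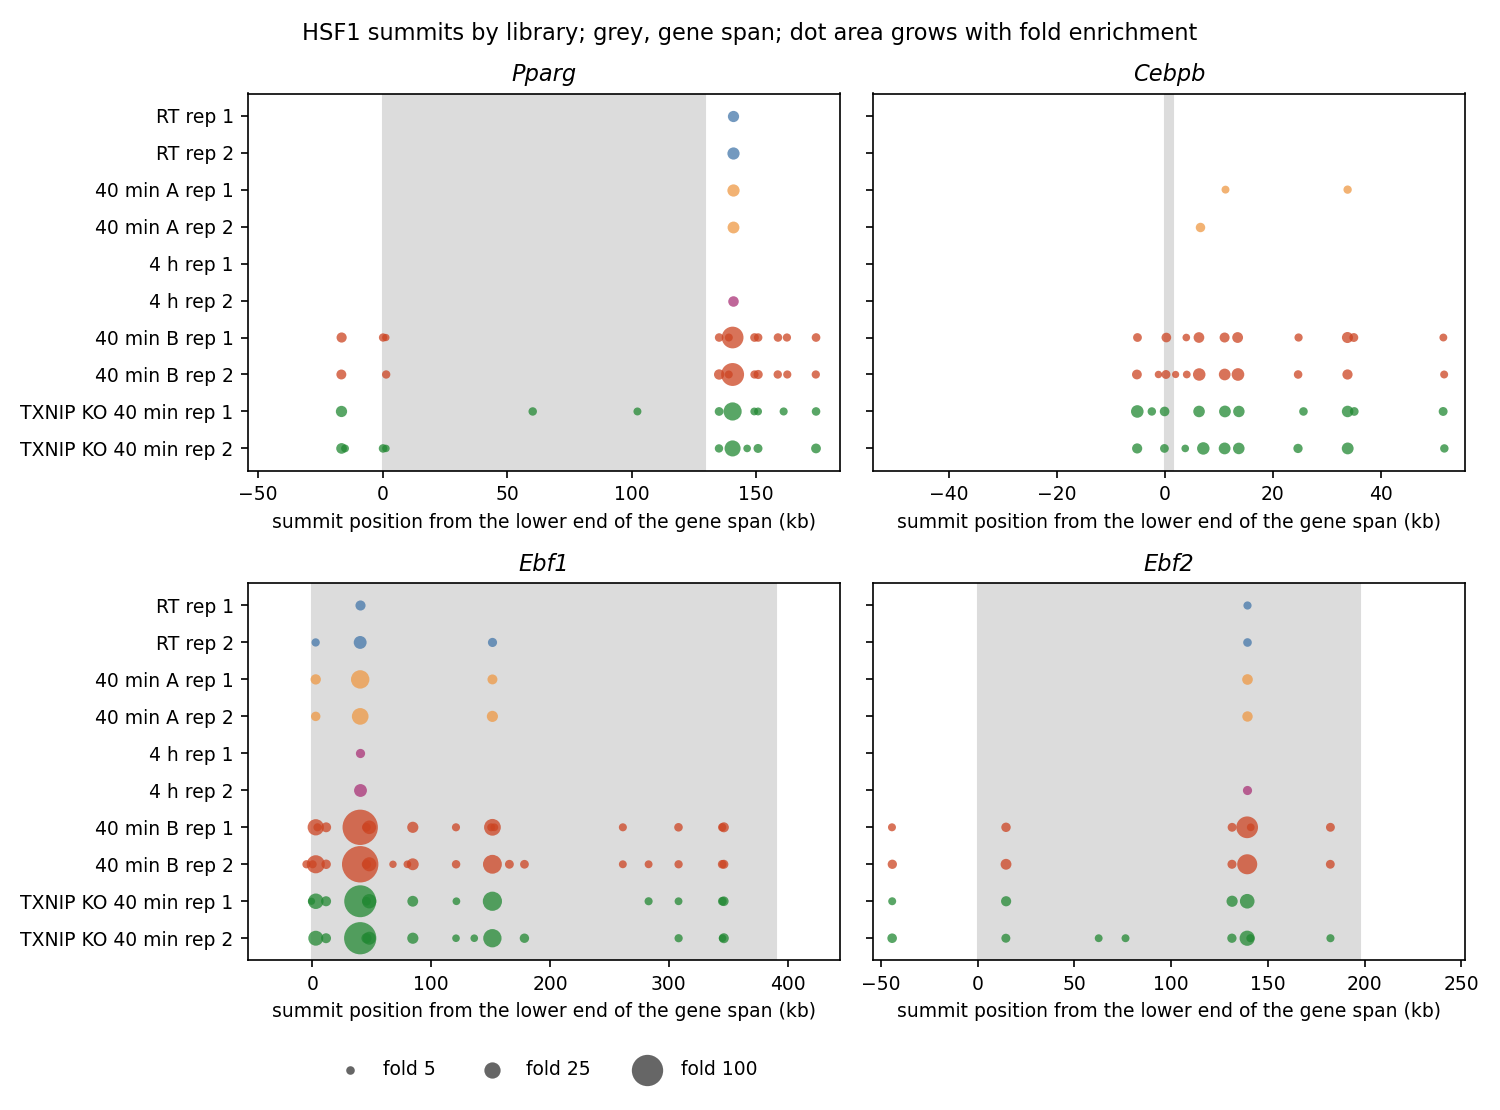
Summit positions (x axis, kb from the lower end of the gene span, grey) in each library (rows) at Pparg, Cebpb, Ebf1 and Ebf2, with dot area growing with fold. At Pparg, Ebf1 and Ebf2 one position recurs in 9 or 10 libraries, while Cebpb has 11 regions of which none is seen at room temperature or 4 h.

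Early B-cell factor 1, which has a role in adipogenesis as well as in B cells, carried the strongest site of the set. The Ebf1 span is chr11:44618100-45008096, and 19 of its 21 regions lay inside it. The leading region, with a median summit at 44658361, was 38133 bp after the nearest listed start, and its 10 summits lay within 30 bp. The fold there was 8.01 and 14.7 at room temperature, 32.9 and 26.4 in pair A, 6.20 and 14.6 at 4 h, 128 and 136 in pair B and 104 and 106 in the knockout. Group means were 11.4 ± 4.73, 29.6 ± 4.60, 10.4 ± 5.94, 132 ± 5.66 and 105 ± 1.41 in that order (SD, n = 2 each). It was among the top 0.569% to 0.952% of the long lists, the top 4.20% and 6.29% of pair A, and between the top 10.8% and 68.3% at room temperature and 4 h. As a percent of the Hspe1 fold it was 4.12 and 7.64 at room temperature, 8.21 and 8.06 in pair A, 11.6 and 12.5 at 4 h, 9.91 and 11.3 in pair B and 9.04 and 9.58 in the knockout. Both 4 h values were the highest of the 10, although the 4 h folds themselves were among the lowest. On this scale and as deposited, both knockout values lay below both of pair B.

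A pair of Ebf1 regions was called in 7 libraries each. One lay 744 bp after a listed start, with a median summit at 44620972. Its fold was 4.49 in room temperature replicate 2, 8.46 and 6.68 in pair A, 25.1 and 31.6 in pair B and 22.4 and 20.7 in the knockout. The other lay deep in the gene at 44769663, with folds of 6.05 in room temperature replicate 2, 7.65 and 10.3 in pair A, 26.7 and 34.5 in pair B and 35.9 and 32.4 in the knockout. Neither had a peak in a 4 h library. Of the remaining 18 regions, all in the long lists only, the strongest was at 44666002, with folds of 16.7 and 18.0 in pair B and 18.9 and 15.0 in the knockout.

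EBF2, a marker and driver of brown and beige fat precursors, had 7 of its 8 regions inside its span, chr14:67233292-67430952. The leading region had a median summit at 67372628, 139336 bp from the lower end of the span and 58324 bp from the upper end. Its fold was 4.29 and 5.08 at room temperature, 9.18 and 8.63 in pair A, 6.07 in 4 h replicate 2 with no peak in replicate 1, 46.8 and 39.3 in pair B and 19.7 and 21.5 in the knockout. As a percent of Hspe1 this was 2.21 and 2.63, 2.29 and 2.63, 5.18, 3.61 and 3.25, and 1.71 and 1.94 in the same order. The room temperature and pair A values overlapped on this scale, and both knockout values lay below both of pair B. Its ranks ran from the top 93.9% of the list in room temperature replicate 1 to the top 4.03% in pair B replicate 1.

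**Figure D3:**
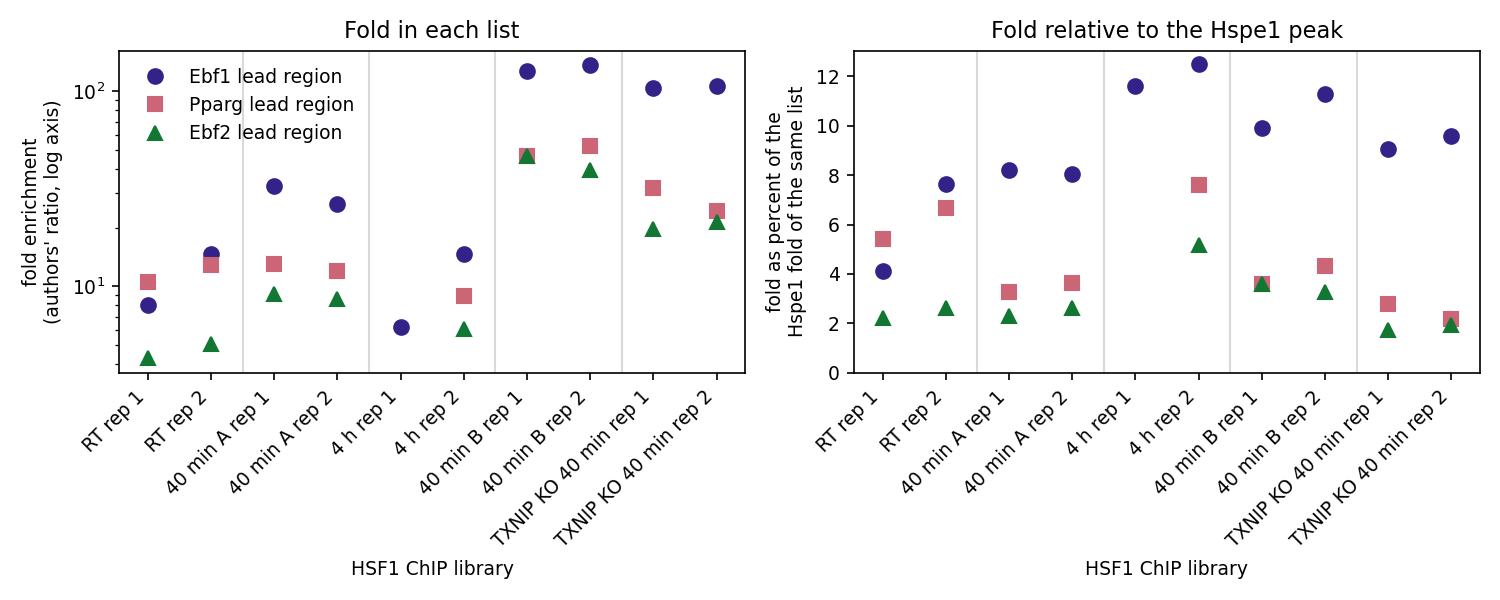
Fold of the leading regions of Ebf1, Pparg and Ebf2 in each library, as deposited (left, log axis) and as a percent of the Hspe1 fold of the same list (right, linear axis from 0). The Ebf1 region reaches 136 in pair B, and the knockout points of Ebf1, Pparg and Ebf2 all lie below those of pair B on both scales.

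Srebf1, whose product drives fatty acid synthesis genes, had 6 regions around chr11:60199084-60224186, none in the time course. Of these, 4 had their summit inside the neighbouring gene Rai1, among them the strongest, with folds of 8.16 and 7.38 in pair B and 10.4 and 9.40 in the knockout. The promoter peak shown above lay 160 bp before its start and was called in knockout replicate 1 alone, with a fold of 4.77. The last, inside the gene, was in 1 library of pair B with a fold of 2.92.

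Mlxipl, which encodes the glucose-sensing factor ChREBP, differed between the libraries at 4 h. Its span is chr5:135089890-135139768, and 4 h replicate 1 called 4 peaks in it while 4 h replicate 2 and both room temperature libraries called none. Their summits were at 135107041, 135121773, 135123770 and 135133371, the first of them 150 bp after a listed start. Their folds were 14.0, 8.73, 14.0 and 28.5, and the strongest held rank 6 of the 123 peaks in that list. Mlxipl was the only coding gene with 2 or more peaks of 4 h replicate 1 inside its span. Of the 6 peaks of that library that no other list overlapped, 3 were in Mlxipl with folds of at least 8.73, and outside Mlxipl the highest was 7.12. The fourth overlapped a peak of pair A replicate 1 with a fold of 3.38. The 4 positions had no peak in any long list. These 4 peaks made up 4 of the 5 peaks that 4 h replicate 1 held at all 8 genes, and their part in any 4 h value given here rests on that library alone.

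In the long lists Mlxipl had other regions. One at 135137446, 2322 bp inside the gene's upper end, had folds of 3.87 in pair A replicate 1, 21.1 and 19.9 in pair B and 11.6 and 9.88 in the knockout. Another at 135114063 had 9.56 and 14.9 in pair B and 11.4 and 13.0 in the knockout. The 4 regions outside the gene lay in or nearest to Bud23, Tbl2, Bcl7b and Baz1b, with folds of 2.89 to 6.41.

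**Figure D4:**
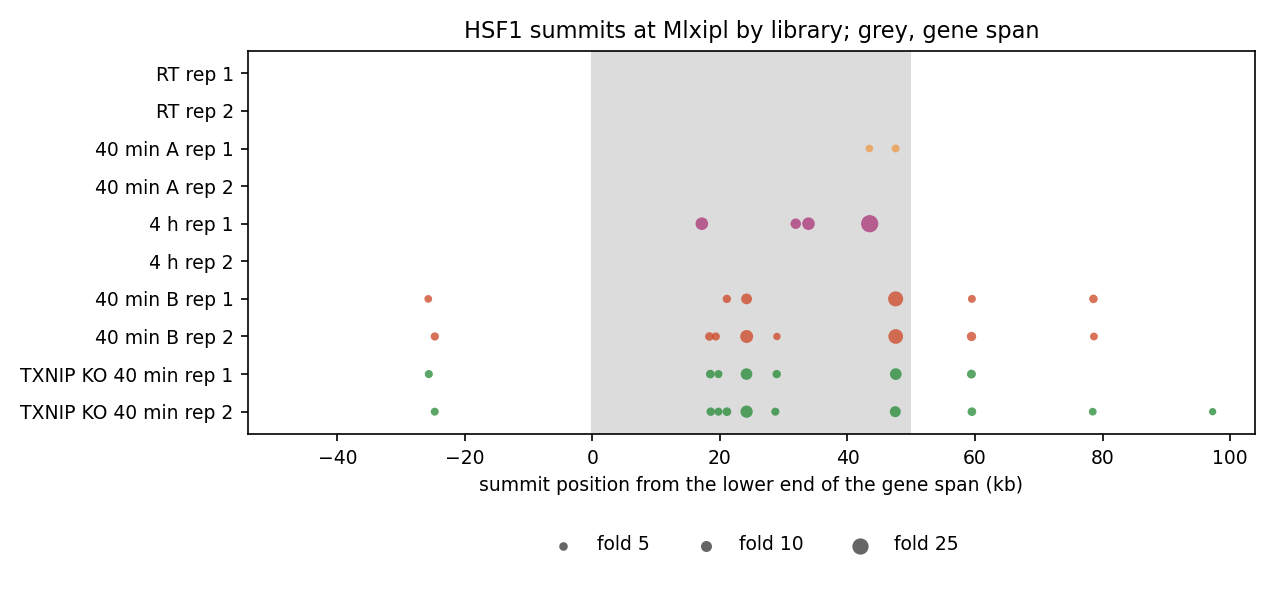
Summit positions at Mlxipl (x axis, kb from the lower end of the gene span, grey) in each library (rows), with dot area growing with fold. The 4 summits of 4 h replicate 1 share a position with at most 1 small peak of pair A, and those of the long lists lie elsewhere.

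The cold time course was compared at the level of peak number and of regions gained or lost, where gained means called in both libraries of the later group and in neither of the earlier one. Between room temperature and pair A, peaks at these genes numbered 4.50 ± 0.707 and 8.0 ± 2.83 (SD, n = 2 each), a log2 difference of 0.68 (two-sided exact permutation p = 0.333 over the 4 libraries). The smallest p that 2 against 2 allows is 0.33, so no such test could pass 0.05. With both groups' lists cut to the length of the shortest, the difference was 0. None of the 11 regions of these genes was gained or lost, against 15.8% gained and 0.194% lost among all 2582 regions, and 3 were shared. Those 3 are the leading regions of Ebf1, Pparg and Ebf2. The deposited fold was higher in both cold libraries than in both room temperature libraries at Ebf1 and Ebf2, as it was at 79.8% of all 756 shared regions (1.46% were lower), and overlapped at Pparg. Relative to Hspe1, Ebf1 was above (log2 difference 0.54) and Pparg below (-0.80), where 7.80% of all shared regions were above and 50.5% below, and Ebf2 overlapped (0.03).

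At 4 h the peak number was 4.00 ± 1.41 (SD, n = 2), a log2 difference of -0.16 from room temperature (exact permutation p = 1.0) and of -0.84 from pair A (p = 0.333, exact permutation). Without Mlxipl, whose 4 h peaks come from replicate 1 alone, these differences were -0.95 and -1.49. With Mlxipl kept and lists cut to the 123 peaks of the shortest, the differences changed sign, to 1.79 and 0.79. The 4 Mlxipl peaks of 4 h replicate 1, at ranks 6, 17, 17 and 42, all stay in that cut. Both values therefore rest partly on that library, and the cut without Mlxipl was not computed. Of 10 regions seen at room temperature or 4 h, none was gained or lost and only the leading Ebf1 region was shared, while among all regions 0.210% were gained and 36.6% lost. Of 14 regions seen in pair A or at 4 h, 2 were lost and none gained, against 46.4% lost and 0.0404% gained among all regions. Both lost regions were in Ebf1, the promoter-proximal one and the one deep in the gene described above. These comparisons share libraries and are not independent.

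The genotype comparison set the knockout against pair B. No label ties pair A or pair B to the preparation of the knockout. Pair B was taken as control partly because its lists are of similar length, a choice that itself favours similar peak numbers. Peak number was 53.0 ± 2.83 in the knockout and 56.0 ± 4.24 in wild type (SD, n = 2 each), a log2 difference of -0.08 (exact permutation p = 0.667), which was 0.16 with lists of equal length. Of 75 regions, 1 was gained in the knockout and 4 were lost, against 1.1% gained and 7.36% lost among all 18147 regions, or 1.33% and 5.33% of the 75, so both shares were near the background. The gained region lay past Cebpa at 35142255, with folds of 3.94 and 5.14. The lost ones were 3 behind Pparg, at 115499832, 115519530 and 115523242, and 1 in Ebf1 at 44879459, with wild type folds of 3.82 to 4.92. With pair A as control, 30 regions were gained and none lost, against lists of 2287 and 1670 peaks.

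All 4 of these libraries called 36 shared regions. Relative to Hspe1, both knockout libraries were above both wild type libraries at 12 of them and below at 6, where 20.2% and 23.5% of all 7131 shared regions were. The median log2 difference was 0.14 over the 36 and -0.01 over all. With folds as deposited the counts were 9 and 9, against 10.6% above and 39.1% below among all regions, with medians of -0.01 and -0.16. With ranks as a percent of the list they were 5 above and 10 below, and no share over all regions was computed for ranks. The balance between the directions among the 36 thus depends on the scale, and by rank it has no background to be set against. With pair A as control, where few regions are shared, 1 was above and 3 below relative to Hspe1. The ratio to Hspe1 was chosen after the data were seen.

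At Cebpb, 5 of 8 regions were above and none below, at 167683825, 167700010, 167713649, 167722779 and 167740570, with log2 differences of 0.90, 0.46, 0.42, 0.50 and 0.57. The same gene had 5 above and none below with folds as deposited, and 3 above and none below by rank. As deposited, the groups parted only narrowly at 167700010, with 7.78 and 11.7 in pair B and 11.8 and 11.9 in the knockout. The same held at 167713649, with 4.38 and 4.97 in pair B and 4.98 and 6.32 in the knockout. Below were the leading regions of Pparg (-0.68) and Ebf2 (-0.91), the Mlxipl region near the gene's upper end (-0.79), the leading regions of Ebf1 (-0.18) and Cebpa (-0.18) and the Ebf1 region at 44739051 (-0.23). The other 7 above were at Ebf1, the deep region at 44769663 (0.32) and those at 44629662 and 44964471 (0.28 each), at Pparg, 115344360 and 115534853 (0.48 each), at Ebf2, 67364778 (0.66), and at Srebf1, 60173587 (0.50). Relative to Hspe1, Pparg thus had 2 above and 1 below, Ebf2 had 1 of each, and Ebf1 had 3 above and 2 below. With folds as deposited, Pparg and Ebf2 each had 1 above and 1 below, and Ebf1 had 1 above and 4 below. By rank, Pparg had 1 above and 1 below, Ebf2 0 and 1, and Ebf1 0 and 5. The direction at Ebf1 therefore depends on the scale. No test was run on single regions, and the exact permutation test cannot go below 0.33 here.

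**Figure D5:**
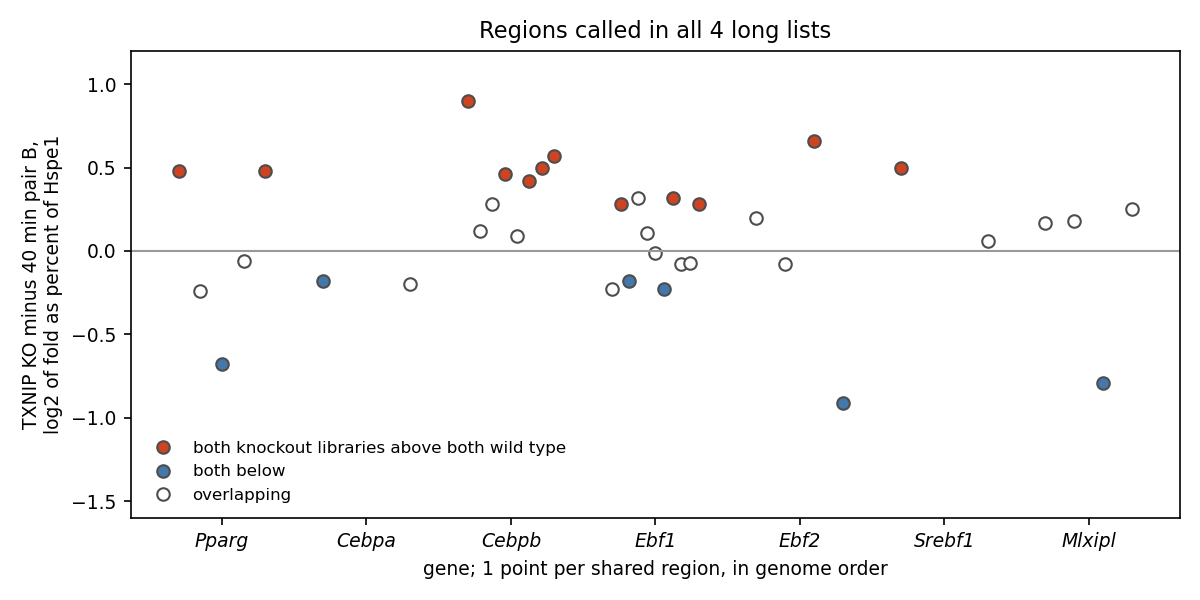
TXNIP knockout minus pair B, as the log2 difference of the fold relative to Hspe1 (y axis), for each of the 36 regions called in all 4 libraries, by gene (x axis); colour marks regions whose 2 knockout values both lie above or below both wild type values. Cebpb has 5 points above and none below, and the points lowest on the axis are the Ebf2, Mlxipl and Pparg regions at -0.91, -0.79 and -0.68.

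Between both wild type pairs at 40 min, 35 of 64 regions were in both libraries of pair B and neither of pair A and none the other way, against 48.0% and 0.00601% of all 16645 regions. Peak number differed by 2.70 on the log2 scale (exact permutation p = 0.333) and by 0 with lists of equal length, where 1 region was gained. Genotype and time course values therefore rest on lists of very different length.

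A list of 39 further regulators of fat cell formation and lipid genes was counted by the same window rule. In both room temperature libraries 3 had a region (7.69%, the same as over all coding genes): Rxra, the obligate partner of PPARγ, Prdm16, the brown fat co-regulator, and Klf15. In pair A 9 did (23.1%, against 13.0% of all genes), adding Cebpe, Mlx, Gata2, Irf4, Foxo1 and Ddit3, of which Mlx is the dimer partner of ChREBP. None did at 4 h (1.28% of all genes), and 35 (89.7%) did in each of pair B and the knockout (48.0% and 41.1% of all genes). From room temperature to 40 min, 7 of the 39 gained a region (Cebpe, Mlx, Prdm16, Gata2, Irf4, Foxo1 and Ddit3) and none lost one, which is 23.3% of the 30 regions of the list gained against 15.8% of all regions. From room temperature to 4 h, 3 lost a region (Rxra, Prdm16 and Klf15), and 8 did from pair A to 4 h, with none gained. These are 42.9% and 41.4% of the list's regions, against 36.6% and 46.4% of all. Between pair B and the knockout, 3 gained a region (Mlxip, Prdm16 and Foxo1) and 11 lost one (Rxrb, Ppard, Prdm16, Zfp423, Klf4, Klf15, Nr3c1, Stat5b, Gata2, Foxo1 and Esrra). In regions this was 1.43% gained and 5.24% lost of 210, against 1.1% and 7.36% of all, so both were near the background. None of the 39 had a region called in all 10 libraries, as Ebf1 did.

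Genes whose windows had the most similar pattern were found by Euclidean distance over the 10 libraries between log2 values of the highest fold in the window, with 0 where there was no peak. For Ebf1 they were Pald1, Nodal and Eif4ebp2, at a distance of 0.880 each because they share 1 peak. Its fold was 9.81 and 14.6 at room temperature, 26.8 and 27.6 in pair A, 8.27 and 14.3 at 4 h, 108 and 99.8 in pair B and 79.9 and 96.0 in the knockout. For Pparg they were Pakap (1.1), Stambpl1 (1.11) and Acta2 (1.11), and for Ebf2 Prkar2b (0.588), Cd83 (0.816) and Fer1l6 (0.968). For Cebpa they were Gpatch2 (0.577), Mrc2 (0.637) and Marchf10 (0.637), and for Cebpb Tas1r2 (0.508), Cpt1c (0.559) and Prmt1 (0.559). For Mlxipl the nearest were Hsf2 and Serinc1 at 3.34, sharing 1 peak, and Cdkl4 at 4.85. These larger distances depend on 4 h replicate 1, where Mlxipl had a log2 value of 4.84. There Cdkl4 had no peak and Hsf2 a fold of 7.12. Distances without that library were not computed.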

How the data were processed

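HSF1 ChIP-seq of mouse brown adipose tissue was analysed from 10 peak lists, 1 per library. Per the labels' protocols, crosslinking used DSG (2 mM, 25 min) followed by formaldehyde (0.8%, 12 min), and the antibody was Cell Signaling 4356. The 5 input libraries were not analysed here, and 1 of them has conflicting labels and stayed unassigned. MACS2 2.2.7.1, BWA 0.7.17, deepTools 3.4.3, Trim Galore 0.6.0 and SAMtools are named in the submitters' processing notes, with the build GRCm38.p6 (mm10). How reads were filtered, and how inputs were matched to libraries, is not given in the sources used here. Every deposited list, called on a single library, gives each peak a fold enrichment (a linear ratio), the −log10 of its p-value and the −log10 of its q-value (smallest 1.30), as the authors' caller wrote them. The authors' integer score was not used.

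Peaks on chromosomes 1 to 19, X and Y were kept, with identical intervals counted once. Genes and starts came from RefSeq tables of GRCm38, and regions are peaks merged at an overlap of at least 1 bp, with 1-based positions. Peak numbers were compared as log2(number + 1) by two-sided exact permutation tests over libraries. A region called in all libraries of both groups counted as above or below when the groups did not overlap. The merging and counting were tested on simulated peaks. Regions described in full are, per gene, the one called in most libraries and any called in 6 or more. The 8 genes, the 39 further regulators and the tests were chosen with earlier results of these data known, and 1 more listed gene is not reported here. Alternatives were a 10 kb window, a −log10 q of at least 5, summits within 250 bp, lists of equal length, each replicate left out and pairing by replicate number. Python 3.11.15 was used with numpy 2.4.6, pandas 2.3.3, scipy 1.17.1 and matplotlib 3.10.9.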

Additional observations from a re-analysis of the deposited data

How the results depend on the processing

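Depth is unknown, so the lists' lengths limit what can be compared: a region missing from a short list may be below its threshold. With a 10 kb window, the genes with a region in both libraries fell from 3 to 2 at room temperature and in pair A. The leading Pparg region lies 10960 bp past the gene, outside that window. They also fell from 7 to 6 in pair B and in the knockout, and stayed at 1 at 4 h. With a −log10 q of at least 5 they fell from 3 to 2 at room temperature and were unchanged in the other groups. The leading Ebf2 region had a −log10 q of 4.15 in room temperature replicate 1. With lists cut to equal length, the log2 difference in peak number was 0 from room temperature to pair A and between both wild type pairs. It changed sign from room temperature to 4 h (1.79), from pair A to 4 h (0.79) and from pair B to the knockout (0.16). Both 4 h values include the 4 Mlxipl peaks that 4 h replicate 1 alone called. The difference from room temperature to 4 h also changed sign with the 10 kb window (0.13) and the stricter q (0.21), and leaving out each replicate gave -0.45 to 0.13. Equal lengths also gave 1 gained region from room temperature to 4 h, 0 lost from 40 min to 4 h, 3 gained in the knockout and 1 gained in pair B against pair A. Knockout regions gained were 3 with summits within 250 bp, and 7 were lost with the stricter q. With pair A as control, 30 were gained and 0 lost, with 1 shared region above and 3 below relative to Hspe1. By rank, 5 were above and 10 below.

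Leaving out each replicate lets 1 library stand for its group, so calls need fewer libraries to meet. It gave 4 to 6 genes with a region in pair A and 2 to 3 at 4 h. Regions gained from room temperature numbered 0 to 4 at 40 min and 0 to 4 at 4 h, with 0 to 2 lost at 4 h. From 40 min to 4 h, 0 to 3 were gained and 2 to 6 lost. In the knockout, 1 to 8 were gained, 5 to 10 lost, 14 to 23 above and 8 to 14 below. Between the wild type pairs, 0 to 1 were lost. Pairing libraries by replicate number (a replicate block) gave sign-flip p = 0.50 in 4 comparisons and 1.0 in the other (exact, smallest possible 0.50). Pairing cannot alter a difference of means, so the unchanged differences check nothing. Replicate differences at shared regions correlated at -0.11, 0.02, -0.21, 0.21 and -0.01 over the 5 comparisons, so the numbers are not shown to pair the libraries. Crossed numbers were tried after the data were seen in the 2 comparisons with a correlation below -0.1 (room temperature to pair A and pair A to 4 h). They could change neither a difference nor, with that smallest p, any call.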
